A study of Macaca mulatta with 6 samples.

Results

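Glucocorticoid-responsive genes were followed over the clock in the adrenal gland, the organ that makes the hormone they respond to. The group comprised FKBP5, TSC22D3, SGK1, ZBTB16, KLF9, GLUL, NFKBIA, ERRFI1, DUSP1 and TAT, and every probe set whose platform annotation names one of these 10 genes was taken, whatever its values. These were 16 of the 22215 probe sets on the array that are not controls, and they cover 9 of the 10 genes, since no probe set in the annotation names ERRFI1, which encodes an inhibitor of the epidermal growth factor receptor. All 16 name a single gene.

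The samples were left adrenal glands of ovariectomized female rhesus macaques, 1 animal and 1 array at each of 6 clock times 4 h apart. All animals lived in individual cages for 3 months with 12 h of light alternating with 12 h of darkness, ate 2 meals a day and were fasted for 12 h before collection. The 3 AM and 7 AM animals were both 12 years old. The 11 AM animal had an age of 10 years plus 37 days, the 3 PM animal 8 years plus 106 days, the 7 PM animal 7 years plus 82 days and the 11 PM animal 8 years plus 70 days. Clock time, the single animal and its age therefore cannot be told apart at any time point, and no clock time has a replicate. RNA was hybridised to a human array, so clock times are compared within a probe set. Ranks, filters and sums across probe sets describe signal on this array and not amounts of RNA.

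Cortisol, the glucocorticoid of primates, is made in the adrenal cortex under the control of pituitary ACTH and normally follows a daily course with a maximum around waking. In responding cells it binds the glucocorticoid receptor, NR3C1, which is held ready by HSP90 chaperones, enters the nucleus and activates genes such as those described here. Several of them, among them DUSP1, SGK1 and NFKBIA, are also induced by stress and growth signals without the hormone. Cortisol itself was not among the values used here.

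The tissue carried markers of adrenal cortex and medulla. Of 10 adrenal cortex markers listed, 9 had a probe set that names them alone and all 9 lay above the level filter, with mean intensities of 12834 for STAR, which brings cholesterol into mitochondria, and 33606 for CYP17A1, a steroid hydroxylase. Of 10 chromaffin markers 9 lay above it. The level filter is the median of the probe sets' mean log2(value + 1), 7.30, and 11 of the 16 probe sets of the glucocorticoid-responsive genes passed it, covering 7 genes. The other 5 include the only probe set of FKBP5 and both of TAT. Spiked hybridisation controls were lower at 3 AM and 3 PM (geometric means of 416 and 539.6) than on the other 4 arrays (792 to 903). The 3'/5' signal ratio of GAPDH, a sign of RNA integrity, was 1.16 (3 PM) and 1.15 (7 PM), while the remaining 4 arrays ran from 0.721 to 0.988. That of ACTB was lowest at 3 PM (0.610) and near its highest value of 0.819 at 7 PM (0.813).

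The pattern that the members had most in common was a low level in the 7 PM animal. None of the 11 probe sets above the filter exceeded its own mean at 7 PM, against 53.5% of all 11108 probe sets fitted. Of the 11, 8 had their lowest value there, against 15.6% of all. This clock time was singled out after the values were seen. Taking 1 probe set per gene, 5 of 7 genes were lowest at 7 PM: TSC22D3, SGK1, ZBTB16, KLF9 and DUSP1. The other two, GLUL and NFKBIA, were lowest at 3 PM. The mean difference of the 11 probe sets from their own means was -0.63 at 7 PM on the log2 scale, against 0.25 at 3 AM, 0.19 at 7 AM, -0.06 at 11 AM, -0.11 at 3 PM and 0.36 at 11 PM. The 7 PM and 3 PM arrays were also the 2 with the highest GAPDH 3'/5' ratio (1.15 and 1.16). The ACTB ratio did not pair them, with 0.813 at 7 PM and its lowest value, 0.610, at 3 PM. The part of RNA integrity in the low values was not tested. The 7 PM animal was the youngest, and with 1 animal there is no test of a single clock time.

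**Figure D1:**
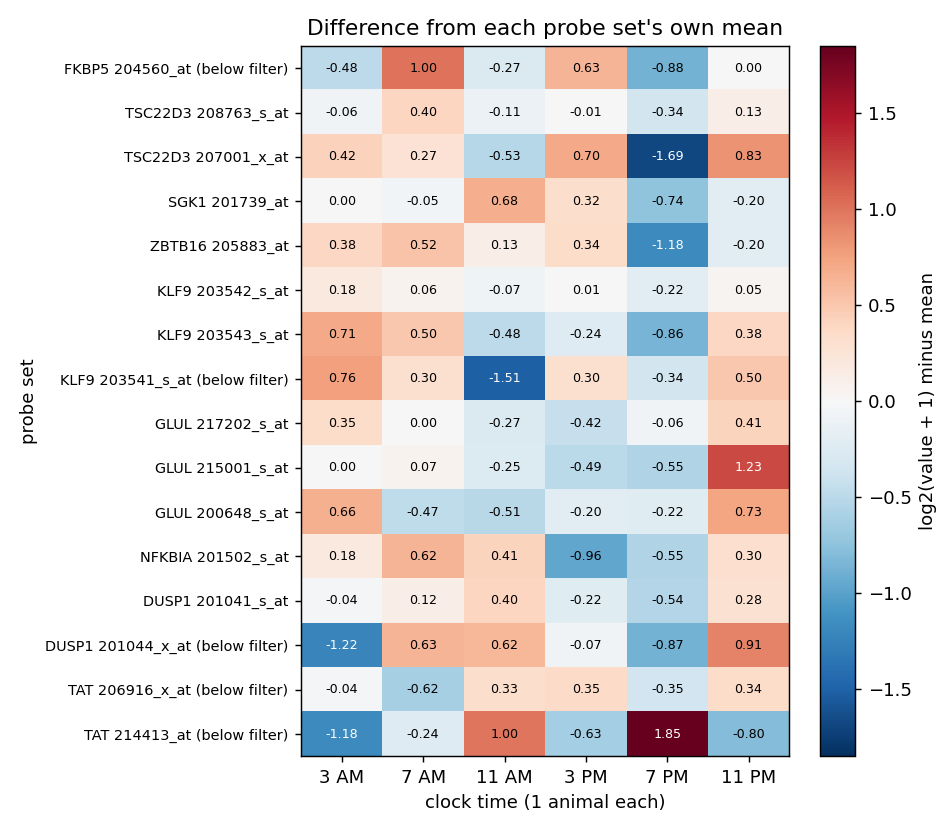
Difference of each of the 16 probe sets (rows) from its own mean over the 6 arrays, in log2(value + 1), by clock time (columns, 1 animal each). In the 7 PM column all 11 probe sets above the level filter are below their own mean, whereas 1 probe set of TAT that lies below the filter has its highest value there. Of all 11108 probe sets fitted, 53.5% exceed their own mean at 7 PM.

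ZBTB16, a zinc finger transcription factor that glucocorticoids induce in many tissues, stood at -1.18 from its own mean at 7 PM on the log2 scale. Its intensity was 1314 at 3 AM, 1447 at 7 AM, 1100 at 11 AM, 1278 at 3 PM, 445 at 7 PM and 879 at 11 PM. The 4 arrays between 3 AM and 3 PM lay close together and the 2 evening arrays below them. A 24-h cosine gave a peak 2.40 times the trough at 7.49 h, counted in hours after midnight (log2 difference 1.26 ± 0.45, SE; unadjusted p = 0.0667, adjusted p = 0.866 by limma's moderated F test). Without the 7 PM array the fitted log2 difference was 0.55, and without 3 PM it was 1.72, where it passed the unadjusted threshold of 0.05. With age as a covariate it was 0.43 (unadjusted p = 0.695).

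SGK1 encodes a kinase that raises sodium transport and is a direct target of both corticosteroid receptors. Its intensity was 1114 at 3 AM, 1081 at 7 AM, 1788 at 11 AM, 1394 at 3 PM, 667 at 7 PM and 969 at 11 PM. It was highest at 11 AM, later than most of the group, and the fitted peak lay at 10.1 h with a peak 1.94 times the trough (log2 0.95 ± 0.39, SE; unadjusted p = 0.107). Without the 7 AM array the log2 difference was 1.34 and passed the unadjusted threshold.

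TSC22D3, also known as GILZ, is a leucine zipper protein that carries much of the anti-inflammatory action of glucocorticoids. Its stronger probe set, 208763_s_at, read 3237 at 3 AM, 4468 at 7 AM, 3125 at 11 AM, 3345 at 3 PM, 2662 at 7 PM and 3695 at 11 PM. Its highest value was thus only 1.68 times its lowest. The weaker probe set, 207001_x_at, read 246 at 3 AM, 222 at 7 AM, 127 at 11 AM, 299 at 3 PM, 56.3 at 7 PM and 327 at 11 PM, a ratio of 5.82 between highest and lowest. Both were lowest at 7 PM, but they disagreed on the size, with fitted log2 differences of 0.42 ± 0.31 and 0.98 ± 0.86 (SE), and neither passed the unadjusted threshold (unadjusted p = 0.446 and unadjusted p = 0.549). For 207001_x_at the fitted difference was 2.49 without the 3 PM array, where it passed the unadjusted threshold, and without 7 PM its peak moved to 21.2 h. For 208763_s_at the difference was 0.17 without 7 AM, 0.24 without 7 PM and 0.65 without 3 AM.

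DUSP1 encodes a phosphatase that switches off MAP kinases. On 201041_s_at its intensity was 1808 at 3 AM, 2020 at 7 AM, 2440 at 11 AM, 1589 at 3 PM, 1275 at 7 PM and 2254 at 11 PM. High values stood at both 11 AM and 11 PM, and the cosine described it poorly (R2 0.374; log2 difference 0.54 ± 0.36, SE; unadjusted p = 0.369). The difference was 0.19 without the 7 PM array and 0.91 without 11 PM. A second probe set, below the filter, ran from 60.8 at 3 AM to 270.0 at 11 PM.

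**Figure D2:**
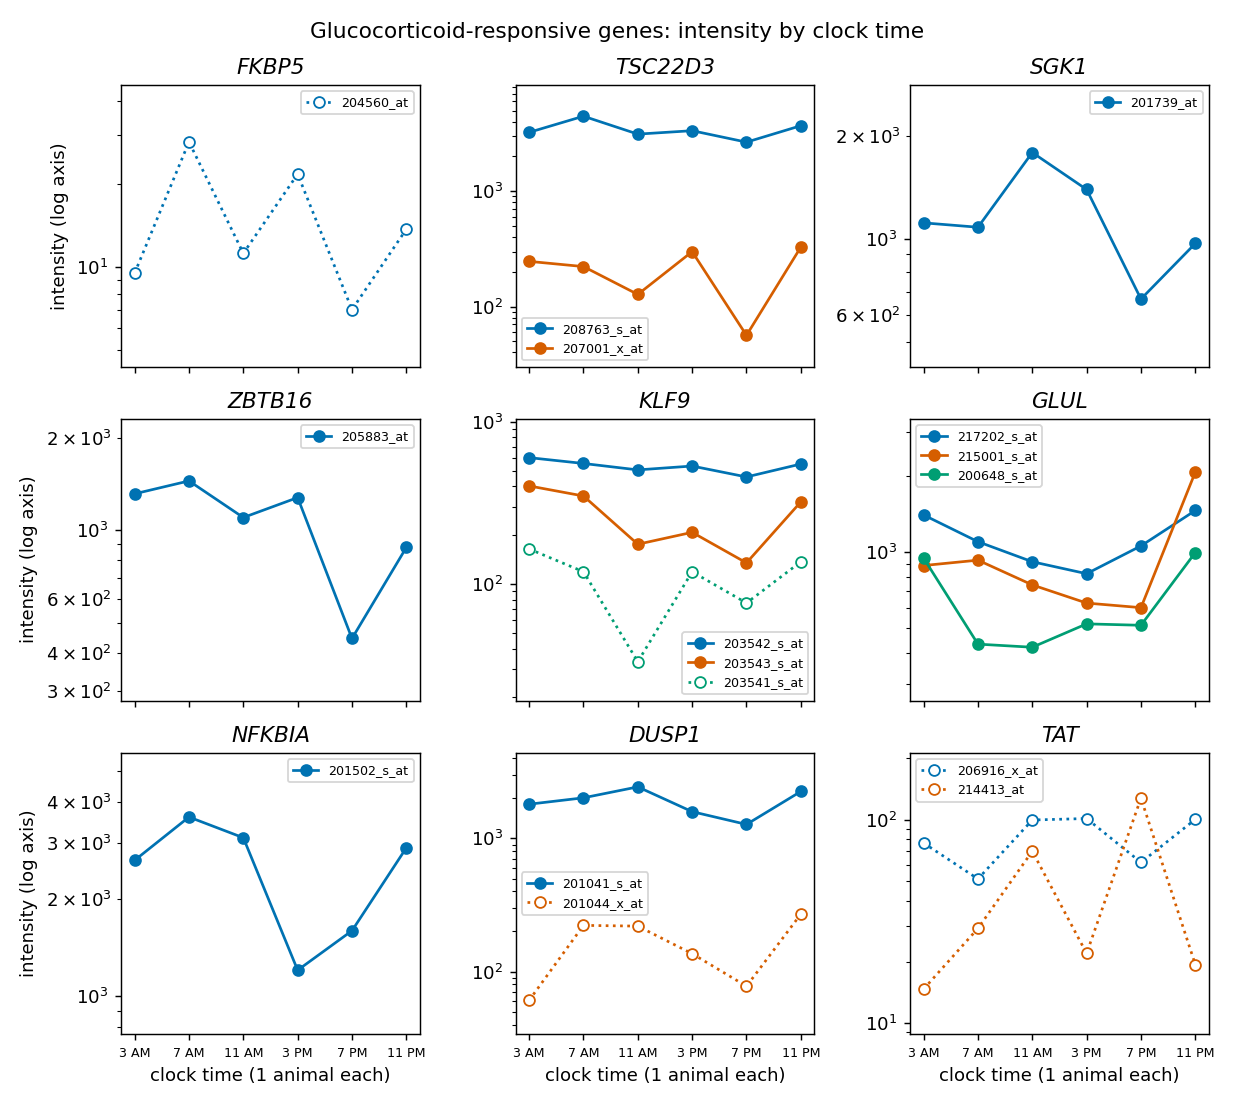
Intensity (vertical, log axis) of every probe set of the 9 measured genes by clock time (horizontal, 1 animal each); filled points and solid lines lie above the level filter, open points and dotted lines below it. ZBTB16 was lowest at 7 PM with 445, NFKBIA at 3 PM with 1202, and the 3 probe sets of GLUL were all highest at 11 PM.

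NFKBIA, the inhibitor that keeps NF-kappaB in the cytoplasm, was low in both the 3 PM and the 7 PM animal. Its values were 2642 at 3 AM, 3602 at 7 AM, 3105 at 11 AM, 1202 at 3 PM, 1595 at 7 PM and 2888 at 11 PM. The other 4 were high, and the low values began earlier than in ZBTB16 or SGK1. The fitted log2 peak-to-trough difference was 1.34 ± 0.41 (SE; unadjusted p = 0.0345, adjusted p = 0.866 by limma). It no longer passed the unadjusted threshold without the 7 AM, the 3 PM or the 7 PM array, with differences of 1.31, 0.94 and 1.39 in that order.

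GLUL, glutamine synthetase, which joins ammonia to glutamate and is a long-known glucocorticoid target in muscle and retina, had its maximum late at night. On 217202_s_at it read 1404 at 3 AM, 1101 at 7 AM, 917 at 11 AM, 822 at 3 PM, 1059 at 7 PM and 1463 at 11 PM, a smooth course that the cosine followed closely (R2 0.972). On 200648_s_at the values were 948 at 3 AM, 433 at 7 AM, 421 at 11 AM, 521 at 3 PM, 514 at 7 PM and 997 at 11 PM, so that 3 AM and 11 PM stood above the other 4. On 215001_s_at the 11 PM animal stood alone with 2074, against 604 to 931 on the other 5 arrays.

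All 3 probe sets of GLUL had fitted peaks near midnight, at 1.32 h, 0.101 h and 1.29 h in the order given. Their log2 peak-to-trough differences were 0.84 ± 0.26, 1.25 ± 0.36 and 1.14 ± 0.52 (SE), and the first 2 passed the unadjusted threshold (unadjusted p = 0.0373 and unadjusted p = 0.0274) but not adjustment over all probe sets (adjusted p = 0.866 for both, limma). The call for 217202_s_at was lost whichever array was left out, although its difference stayed between 0.77 and 0.92, and that for 200648_s_at was lost without 3 AM, 11 AM or 11 PM. The difference on 215001_s_at was 0.65 without 11 PM and 1.79 without 3 AM. Its fitted peak near midnight rested on the 11 PM array, as it lay at 5.38 h without that array. With age as a covariate it lay at 5.34 h. Adipocytes also express GLUL, and the summed intensity of the 5 adipocyte markers was highest on the same arrays, which read 3716 (3 AM) and 3175 (11 PM), while the remaining 4 ran from 1287 to 2115. Of these markers FABP4 and LPL lay above the filter, while ADIPOQ, LEP and PLIN1 did not, with mean intensities of 111 for ADIPOQ, 13.8 for LEP and 48.4 for PLIN1, and none was at 0. The part of adipocyte RNA in the GLUL profile was not tested. In whole glands, fewer cells of a type and less RNA per cell cannot be told apart.

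KLF9, a Kruppel-like transcription factor that links glucocorticoids to the clock in human skin cells, gave swings of unequal size on its probe sets. On 203542_s_at it hardly moved, with 601 at 3 AM, 553 at 7 AM, 505 at 11 AM, 534 at 3 PM, 457 at 7 PM and 549 at 11 PM. On 203543_s_at it read 402 at 3 AM, 349 at 7 AM, 176 at 11 AM, 208 at 3 PM, 135 at 7 PM and 321 at 11 PM. Both were highest at 3 AM and lowest at 7 PM, and their log2 values over the 6 arrays had a correlation of 0.946, as a description only, since both measure the same RNA samples. The sizes differed, with a fitted log2 difference of 0.26 ± 0.27 on the first and 1.40 ± 0.38 on the second (SE; unadjusted p = 0.633 and unadjusted p = 0.0203, adjusted p = 0.951 and adjusted p = 0.866, limma). The fitted peak lay at 4.33 h on the first and 3.79 h on the second. The call on 203543_s_at was lost without the 3 AM or the 7 AM array, although the difference stayed at 1.38 and 1.37, and with age as a covariate, where it was 1.02. On 203542_s_at the difference was 0.43 without 3 PM and 0.17 without 7 PM. The third probe set lay below the filter and was highest at 3 AM with 164 and lowest at 11 AM with 33.2.

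FKBP5, a co-chaperone that lowers the hormone affinity of the glucocorticoid receptor and is a widely used marker of its activity, was near the bottom of the intensity range. Its only probe set read 9.5 at 3 AM, 28.4 at 7 AM, 11.2 at 11 AM, 21.7 at 3 PM, 7.0 at 7 PM and 13.7 at 11 PM, and its mean ranked at percentile 5.91 of all probe sets. It too was lowest at 7 PM. The genes whose log2 values resembled it most over the 6 arrays, among 7163 compared, were KMT2B (r = 0.982), NSA2 (r = 0.969), TAF7 (r = 0.964), DRG1 (r = 0.963) and ITSN2 (r = 0.962). Correlations over 6 arrays with so dim a probe set describe these arrays only. TAT, tyrosine aminotransferase, a classical glucocorticoid target in liver, was likewise dim, with 51.1 to 101 on 206916_x_at and 14.7 to 127 on 214413_at. Its 2 probe sets did not run together: the first was lowest at 7 AM and the second highest at 7 PM.

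In the cosine fit, 4 of the 11 probe sets above the filter had an unadjusted p under 0.05, against 5.44% of all 11108 fitted. They belong to 3 genes, GLUL with a pair, KLF9 and NFKBIA. After Benjamini-Hochberg adjustment over all probe sets none of the 11 passed, as was true of all 11108 (0%, 604 at the unadjusted threshold, lowest adjusted p = 0.208). The median log2 peak-to-trough difference was 0.98 for the 11 and 0.44 for all, and the median F was 3.06 for the 11 and 0.862 for all. Fitted peaks ran from 0.101 h for GLUL to 10.1 h for SGK1, so all 11 lay between midnight and late morning. Without single arrays the count of 4 became 1 without 3 AM and 2 without any one of 7 AM, 11 AM, 7 PM and 11 PM. It stayed 4 without 3 PM, but the calls changed. They were then KLF9 on 203543_s_at, GLUL on 200648_s_at, ZBTB16 and TSC22D3 on 207001_x_at. NFKBIA and GLUL on 217202_s_at lost theirs. With the ordinary F test the count was 1, GLUL on 217202_s_at. The ordinary F test takes its error only from how far single animals lie from the probe set's own curve. The limma p-values also draw on the scatter of all probe sets fitted, with 4.52 prior against 3 residual degrees of freedom.

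**Figure D3:**
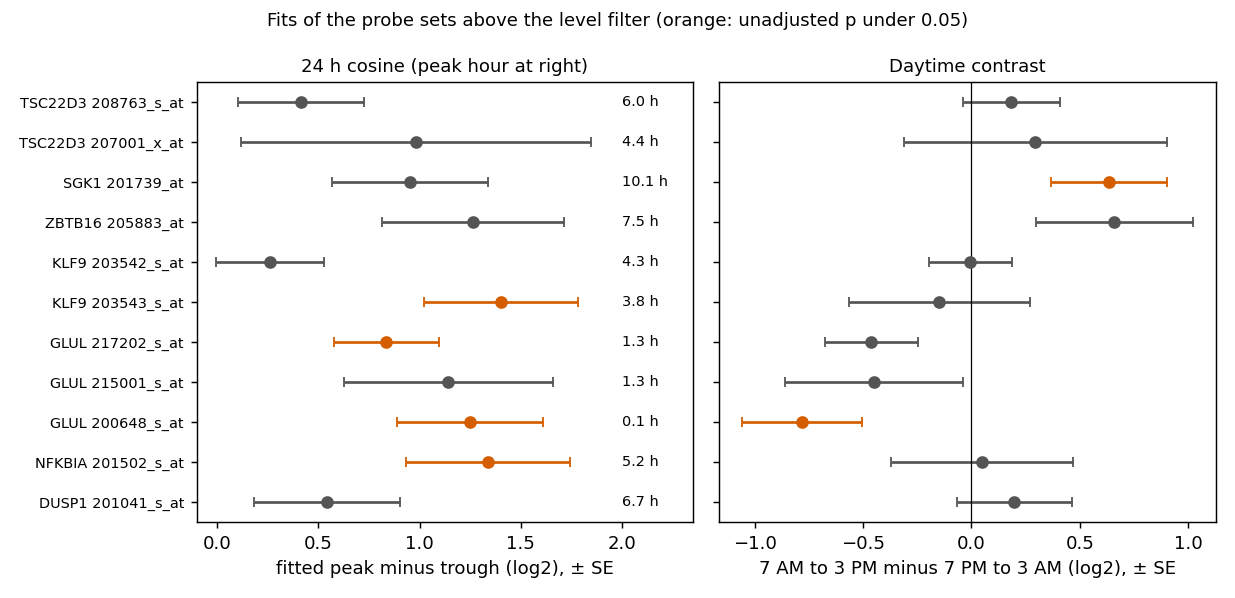
Fitted 24-h peak minus trough (left, log2, with the peak hour) and 7 AM to 3 PM minus 7 PM to 3 AM (right, log2) for the 11 probe sets above the level filter; bars are standard errors of the limma fits and orange marks an unadjusted p under 0.05. The 4 orange points on the left belong to KLF9, GLUL and NFKBIA, and the 2 on the right to SGK1 (0.63) and GLUL (-0.78).

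A coarser comparison set the mean of 7 AM, 11 AM and 3 PM against that of 7 PM, 11 PM and 3 AM, 3 arrays in each. They are called day and night here by the clock. The hour of lights-on was not given, so they cannot be matched to light and darkness. Of the 11 probe sets 6 were higher by day, against 49.6% of all, and the median difference was 0.05 for the 11 and -0.0028 for all on the log2 scale. SGK1 was higher by day, with 1421 ± 354 against 917 ± 228 by night (SD, 3 arrays each; log2 difference 0.63 ± 0.27, SE), and GLUL on 200648_s_at was lower by day, with 458 ± 54.5 against 820 ± 266 (SD, 3 arrays each; log2 difference -0.78 ± 0.28, SE). These 2 of 11 passed the unadjusted threshold (unadjusted p = 0.0438 and unadjusted p = 0.0208 by limma), against 5.53% of all probe sets, 2.93% higher and 2.59% lower by day. Neither passed adjustment (adjusted p = 0.873 and adjusted p = 0.841), nor did any of the 11108 (0%, 614 at the unadjusted threshold), and the day and night arrays overlapped for each of the 11 probe sets, whereas they did not overlap for 5.54% (higher by day) and 5.19% (lower by day) of all. SGK1 lost its call without 11 AM, 3 PM, 7 PM or 11 PM, with a log2 difference of 0.42 without 7 PM, and with age as a covariate (0.59). GLUL on 200648_s_at lost it without 3 AM, 7 AM, 11 AM or 11 PM. The other members that leaned to one side did not pass: ZBTB16 was at 0.66 ± 0.36 (SE), with 0.24 without 7 PM, 1.02 without 3 AM and 1.01 without both 3 AM and 3 PM, and it passed the unadjusted threshold in the last 2 of these fits. GLUL on 217202_s_at was at -0.46 ± 0.22 (SE). It passed the unadjusted threshold without 7 AM (-0.58), without 7 PM (-0.61) and with age as a covariate (-0.54).

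Among genes that bring the hormone signal into the cell, neither receptor was lowest at 7 PM, though 1 of the 9 measured chaperones was. NR3C1, the glucocorticoid receptor, read 545 at 3 AM, 586 at 7 AM, 733 at 11 AM, 624 at 3 PM, 532 at 7 PM and 475 at 11 PM, and NR3C2, the mineralocorticoid receptor, which binds cortisol as well, read 162 at 3 AM, 442 at 7 AM, 265 at 11 AM, 290.0 at 3 PM, 253 at 7 PM and 162 at 11 PM. NR3C1 was lowest at 11 PM and next lowest at 7 PM, and NR3C2 was lowest at 3 AM and 11 PM. NR3C2 was higher by day, by 0.78 ± 0.27 on the log2 scale (SE; unadjusted p = 0.0192, adjusted p = 0.841, limma). HSD11B1, which regenerates cortisol from cortisone, was lowest at 7 AM with 259.9 and highest at 11 PM with 675, and did not pass (unadjusted p = 0.286 in the cosine fit). HSD11B2, which inactivates cortisol, lay below the filter. Of the 4 genes 3 were above the filter, and 0 of them passed in the cosine fit. Of 9 measured receptor chaperones 0 passed, as did 0 of 7 coregulators, beside 5.44% of all probe sets fitted. At 7 PM 1 chaperone and 0 coregulators were lowest, beside 15.6% of all.

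Among 31 other known glucocorticoid targets, 24 were measured above the filter and 1, RGS2, passed the unadjusted threshold in the cosine fit, 1 gene in 24 beside a background of 5.44%. RGS2, which restrains signalling by G proteins, read 289 at 3 AM, 1120 at 7 AM, 2279 at 11 AM, 1166 at 3 PM, 272 at 7 PM and 631 at 11 PM, with a fitted peak at 11.0 h (log2 peak-to-trough difference 2.58 ± 0.70, SE; unadjusted p = 0.0199, adjusted p = 0.866, limma). Its course resembled that of SGK1 in being highest at 11 AM and lowest at 7 PM. In the daytime contrast RGS2 (log2 difference 1.97 ± 0.39, SE) and CD163, a macrophage scavenger receptor (0.73 ± 0.27), passed the unadjusted threshold higher by day. SCNN1A, a subunit of the epithelial sodium channel (-0.74 ± 0.21), and GADD45A, a stress sensor (-0.64 ± 0.24), passed it lower by day. None passed after adjustment. Of the 24 genes 2 were thus called higher and 2 lower by day, beside 2.93% and 2.59% of all probe sets. In this list 7 of 24 genes were lowest at 7 PM, against 5 of the 7 members and 15.6% of all probe sets. As many, 7 of the 24, were lowest at 3 AM, where the share of all probe sets was not counted. Those lowest at 7 PM were CEBPB, CEBPD, PDK4, IRS2, RGS2, ZFP36 and RHOB. At 7 PM 8 of the 24 stood above their own means, against 53.5% of all probe sets fitted. CDKN1A, a cell cycle inhibitor, was among the 8, with 455 and its lowest value at 11 AM.

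Immediate early genes, which respond within minutes to stimulation, had a similar 7 PM low. Of the 17 above the filter 1 exceeded its own mean at 7 PM and 8 were lowest there, against 53.5% and 15.6% of all probe sets fitted. Their mean stood at -0.57 at 7 PM, against -0.52 for the 7 members. Elsewhere the lists parted, as immediate early genes stood at -0.12 at 3 AM and 0.43 at 7 AM, against 0.14 and 0.24 for the members. JUN (peak at 2.69 h, 1.85 times its trough, unadjusted p = 0.0316) and NR4A2 (peak at 9.38 h, 2.80 times, unadjusted p = 0.0266) were the 2 of 17 that passed in the cosine fit, beside 5.44% of all probe sets, neither after adjustment. In the daytime contrast NR4A1 (log2 difference 1.54 ± 0.60, SE) and NR4A2 (1.11 ± 0.26) passed the unadjusted threshold higher by day. These 2 of 17 stood beside 5.53% of all probe sets, and neither passed adjustment. Markers of other cells also moved with the 7 PM array. All 9 cortex markers were above their own means at 7 PM and at 11 PM, against 53.5% and 49.5% of all probe sets fitted. Their summed intensities were 83337 and 77008, against 55346 to 63767 on the other 4 arrays. The smooth muscle sum was highest at 7 PM with 7448, against 2759 to 5785. The chromaffin sum was 25106 at 7 PM, within its range of 16089 to 41667. Whether the share of cortex, smooth muscle or medulla in the gland contributes to the 7 PM values was not tested.

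**Figure D4:**
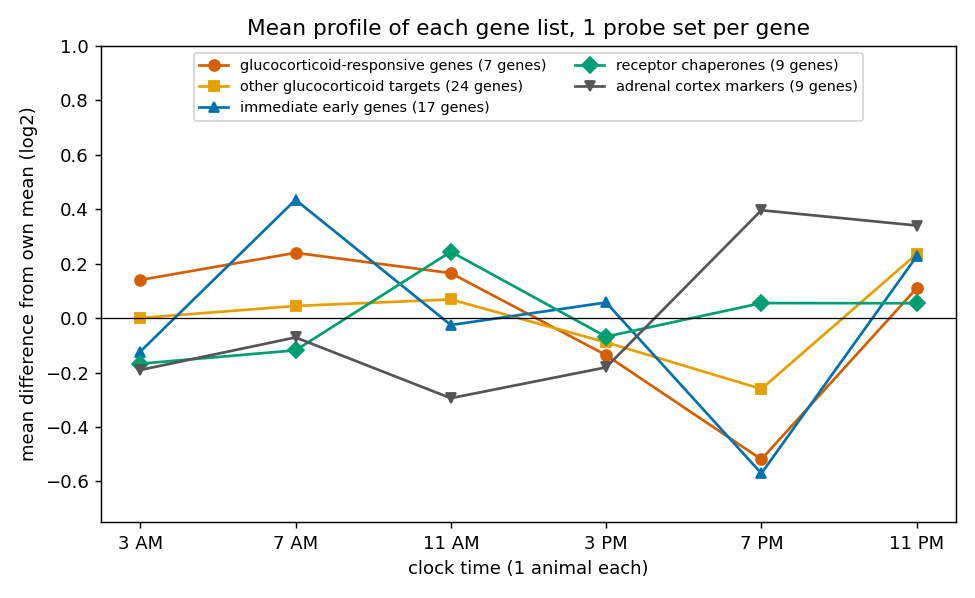
Mean difference from each gene's own mean (vertical, log2(value + 1)) by clock time (horizontal, 1 animal each) for 5 lists, with 1 probe set per gene above the level filter. At 7 PM the glucocorticoid-responsive genes stand at -0.52 and immediate early genes at -0.57, while adrenal cortex markers stand at 0.40.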

How the data were processed

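Adrenal RNA of 6 macaques was measured on 6 arrays. The deposited values are 1 linear intensity per probe set and array. The authors' scaling shows in the 2% trimmed means, 325.04 to 325.09 on all arrays; no source used here names the software. Of 22283 probe sets 68 controls were left out. Gene names come from the platform annotation.

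Values were taken as log2(value + 1). Probe sets with a mean at or above the median (11108) were fitted in limma 3.58.1 (R 4.3.3) with a 24-h cosine and a daytime contrast, with Benjamini-Hochberg adjustment over all of them; probe sets were the unit because members are probe sets. The fit leaves 3 residual degrees of freedom. All fold changes refer to log2(value + 1). A gene's main probe set is the one with the highest mean. The number of arrays limits the precision.

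Named genes are all members, the receptors, list genes past the unadjusted threshold and the 5 genes most like FKBP5; others were chosen after their values were seen. Members and lists were chosen with earlier results of these data known. The fits were tested on simulated data. Endothelial, macrophage, lymphocyte, red blood cell, kidney and liver markers were also listed.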

Additional observations from a re-analysis of the deposited data

How the results depend on the processing

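After adjustment over all probe sets 0 members passed under any alternative run. Across all probe sets 0 passed in either comparison, except 1 in the cosine fit with the level filter at the 75th percentile. The 4 member probe sets past the unadjusted threshold in the cosine fit became 0 with no filter, 1 without moderation and 2 with 1 probe set per gene. They became 5 with the trend and robust prior, 3 with age as a covariate and 1 to 4 without single arrays. Without both the 3 AM and 3 PM arrays there were 3, of KLF9, ZBTB16 and TSC22D3. The 2 in the daytime contrast became 1 with no filter, 0 without moderation, 1 with 1 probe set per gene and 1 without the 3 AM and 3 PM arrays. They became 3 with the 75th percentile filter, 3 with the trend and robust prior and 0 to 2 without single arrays. Over all probe sets the 604 of the cosine fit became 1141 with no filter, 347 at the 75th percentile and 398 with 1 probe set per gene (521 to 799 without single arrays), and the 614 of the daytime contrast became 1117, 376 and 386 (544 to 655), with other numbers of tests in the first 3. The 8 probe sets lowest at 7 PM became 5 of 7 with 1 probe set per gene, 7 when centred on the median and 8 under quantile normalization. They became 9 of 16 with no filter and 6 of 9 at the 75th percentile. All these counts were chosen only once the values were known. The fitted peak moved by over 6 h for KLF9 on 203542_s_at with age as a covariate (log2 difference 0.18) and for TSC22D3 on 207001_x_at without 7 PM (1.16, in a range of 1.03 to 2.49 without single arrays). With age as a covariate NFKBIA had a log2 difference of 4.73, beyond its observed range of 1.58, GLUL on 215001_s_at 4.79, where it gained a call, DUSP1 2.87 (observed range 0.94), TSC22D3 on 208763_s_at 1.31 and ZBTB16 0.43; KLF9 on 203543_s_at (1.02) and GLUL on 217202_s_at (1.06) lost their calls. Apart from fewer arrays or other numbers of tests, the cause was not tested. No paired analysis was possible because there is a single animal per clock time. Only the level filter guards against dim probe sets, as the files hold no background signal.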

Other observations

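A pair of glucocorticoid targets below the level filter had wide ranges and were singled out after their values were seen. LCN2, which encodes lipocalin 2, an iron-scavenging protein of acute inflammation, read 122 at 3 AM, 31.1 at 7 AM, 17.4 at 11 AM, 42.5 at 3 PM, 228 at 7 PM and 388 at 11 PM, so the night arrays all lay above the day arrays. In the fit of all 22215 probe sets its peak was 21.8 times its trough at 22.3 h (unadjusted p = 4.5e-05, adjusted p = 0.857, limma). IL1R2, the decoy receptor for interleukin 1, was highest at 7 PM with 208 and lowest at 7 AM with 25.8. Both were thus high at 7 PM, where the 11 glucocorticoid-responsive probe sets above the filter were below their own means. ANGPTL4 and GADD45B, the other listed targets below the filter, were not high there. They stood at -0.06 and -0.11 from their own means on the log2 scale.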
